A study of Capsella grandiflora x Capsella rubella and Capsella rubella and Capsella grandiflora with 8 samples.

Results

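AGL35 is a type I MADS-box transcription factor of the Mγ class in Arabidopsis, and 4 Capsella genes were described here as its homologues: Carubv10001920m.g, Carubv10002555m.g, Carubv10003757m.g and Carubv10008056m.g. They were chosen because the study's list of type I homologues pairs each of them with the Arabidopsis gene AT5G26630, a rule that uses no expression value, although they were taken up here with earlier results of these data known. The 4 genes are 4 of the 26521 in the count table and 4 of the 21214 that passed the filter on low counts. RNA was sequenced from whole seeds harvested at 6 days after pollination, with 300 to 500 seeds per replicate and 2 biological replicates for each of 4 crosses, 8 libraries in all.

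The female parent is named first in each cross. Cr × Cg seeds had a C. rubella mother and a C. grandiflora father, Cg × Cr seeds had a C. grandiflora mother and a C. rubella father, and Cg and Cr seeds were those of the parental species. C. rubella is self-fertilising and C. grandiflora is an obligate outcrosser. All designated mothers were emasculated and pollinated by hand, also for the selfing species. For expression work the study's methods name 1 line of each species, Cr48.21 and Cg4a, so that differences between Cg and Cr seeds are those of these lines. The study asked why hybrid seeds of the reciprocal crosses develop differently, with endosperm that fails to cellularise when C. rubella is the mother and cellularises early in the other direction.

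MADS-box proteins bind DNA as dimers, and those of type I are divided into the classes Mα, Mβ and Mγ. In Arabidopsis, proteins of the Mγ class pair with Mα proteins such as AGL62, and many genes of both classes are transcribed in the female gametophyte and in the young endosperm, the nourishing tissue formed by the second fertilisation. AGL62 holds the Arabidopsis endosperm in its syncytial phase, and the FIS Polycomb complex, which contains MEDEA (MEA) and FERTILIZATION INDEPENDENT SEED2 (FIS2), is a chromatin repressor that acts in the same tissue. A specific function for AGL35 itself is not stated here.

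All 4 homologues had their highest mean level in Cr × Cg seeds. Summed over the 4, the Cr × Cg libraries held 4793 and 9387 counts, the Cg × Cr libraries 16 and 980, the Cg libraries 1624 and 1088, and the Cr libraries 73 and 162. As CPM, counts scaled to a library total of 1000000, this was 139.8 and 378 in Cr × Cg, 0.543 and 38.1 CPM in Cg × Cr, 54.1 and 40.0 CPM in Cg, and 2.15 and 6.52 CPM in Cr. Cr × Cg seeds were thus above each of the other crosses in both libraries, Cg seeds were above Cr seeds, and the Cg × Cr libraries lay far apart. In whole seeds, a smaller number of endosperm cells and less RNA per cell cannot be told apart.

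The libraries held between 24838286 and 34290034 counts, at which 3 counts, the upper limit that a count of 0 allows, correspond to between 0.0875 and 0.121 CPM. Values are counts of reads that aligned to 1 place in the C. rubella genome. Reads shared by near-identical copies were discarded, and the likeness of the 4 sequences was not analysed here, so each copy may hold fewer counts than its transcripts gave. C. grandiflora reads, too, were placed on the C. rubella sequence. This placement may bear on every comparison between crosses, and its effect was not tested. Because shared reads were discarded and no gene lengths were used, levels are compared between crosses within 1 gene and not between genes. The shares of the AGL35 counts given below are likewise compared between libraries for each copy.

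Carubv10001920m.g was the homologue with the widest range between crosses. It received 660 and 1771 counts (19.2 and 71.3 CPM) in Cr × Cg, 6 and 130 counts (0.204 and 5.05 CPM) in Cg × Cr, 578 and 321 counts (19.3 and 11.8 CPM) in Cg, and 1 and 0 counts (0.0294 and 0 CPM) in Cr. Seeds without a C. grandiflora parent gave a single count of it, and the first Cr × Cg library lay at the level of the first Cg library, so that Cr × Cg and Cg overlapped. The mean was 45.3 ± 36.8 CPM in Cr × Cg, 2.63 ± 3.43 CPM in Cg × Cr, 15.5 ± 5.28 CPM in Cg and 0.0147 ± 0.0208 CPM in Cr (SD, n = 2 each).

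Carubv10002555m.g received 614 and 968 counts (17.9 and 39.0 CPM) in Cr × Cg, 0 and 97 counts (0 and 3.77 CPM) in Cg × Cr, 286 and 202 counts (9.53 and 7.43 CPM) in Cg, and 9 and 34 counts (0.265 and 1.37 CPM) in Cr. Both Cr × Cg libraries lay above all parental libraries, and both Cg × Cr libraries lay below both Cg libraries. The mean was 28.4 ± 14.9 CPM in Cr × Cg, 1.89 ± 2.67 CPM in Cg × Cr, 8.48 ± 1.49 CPM in Cg and 0.816 ± 0.780 CPM in Cr (SD, n = 2 each).

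Carubv10003757m.g received 688 and 1616 counts (20.1 and 65.1 CPM) in Cr × Cg, 0 and 138 counts (0 and 5.36 CPM) in Cg × Cr, 125 and 60 counts (4.17 and 2.21 CPM) in Cg, and 21 and 33 counts (0.618 and 1.33 CPM) in Cr. This copy differed least between the parents and stood furthest above them in Cr × Cg, at 20.5 times the mean of the parental means. The mean was 42.6 ± 31.8 CPM in Cr × Cg, 2.68 ± 3.79 CPM in Cg × Cr, 3.19 ± 1.39 CPM in Cg and 0.973 ± 0.502 CPM in Cr (SD, n = 2 each).

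Carubv10008056m.g received 2831 and 5032 counts (82.6 and 203 CPM) in Cr × Cg, 10 and 615 counts (0.339 and 23.9 CPM) in Cg × Cr, 635 and 505 counts (21.2 and 18.6 CPM) in Cg, and 42 and 95 counts (1.24 and 3.82 CPM) in Cr. The Cr × Cg libraries stood clear of all others, and the second Cg × Cr library lay above both Cg libraries while the first lay below both Cr libraries. The mean was 142.6 ± 84.9 CPM in Cr × Cg, 12.1 ± 16.7 CPM in Cg × Cr, 19.9 ± 1.84 CPM in Cg and 2.53 ± 1.83 CPM in Cr (SD, n = 2 each).

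**Figure D1:**
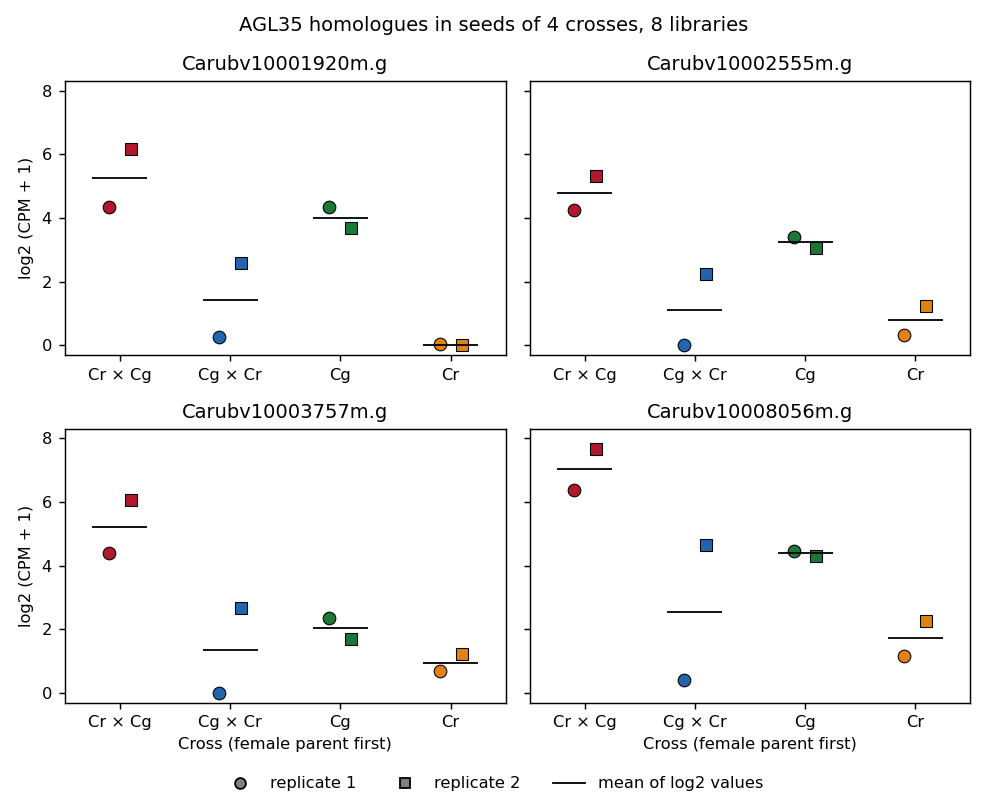
Level of each AGL35 homologue, as log2 (CPM + 1), in the 8 libraries, with 1 panel per gene, crosses on the horizontal axis, circles for replicate 1, squares for replicate 2 and a line at the mean of the log2 values. The mean of Cr × Cg stands highest in each panel, and the Cg × Cr libraries lie between 2.25 and 4.22 log2 units apart. For Carubv10001920m.g the first Cr × Cg library lies level with the first Cg library.

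By mean CPM, the order Cr × Cg, Cg, Cg × Cr, Cr was the same for all 4 homologues. The steps of that order were not equally clear. Both Cr × Cg libraries were above both Cg × Cr libraries in 4 of 4 homologues, against 28.5% of all tested genes. Both Cg libraries were above both Cr libraries in 4 of 4, against 29.0% of all tested genes. Both Cr × Cg libraries were above all 4 parental libraries in 3 of 4, against 16.7% of all tested genes, with Carubv10001920m.g as the exception. The place of Cg × Cr among the parents could not be fixed, since its libraries fell on both sides of the Cr libraries in 3 of the homologues. An exact permutation test of 2 libraries against 2 cannot give a two-sided p under 0.333, so the tests below rest on edgeR's quasi-likelihood model over all 8 libraries, with Benjamini-Hochberg adjustment over all tested genes and a call at an adjusted p under 0.05.

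Against the mother species, Cr × Cg seeds had higher mean levels of all 4 homologues, and the test called 1 of them. Carubv10001920m.g was higher in Cr × Cg than in Cr, with 2431 counts against 1 over both libraries, a ratio of CPM of 2420 whose 95% counting interval of 434 to 95607 mainly reflects the single Cr count (log2 fold change 11.13 ± 2.09 SE, adjusted p 0.0128). This fitted fold change depends on the prior count. The call was lost without the first Cr library (adjusted p 0.0855) and without the second (adjusted p 0.105).

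The other homologues missed the threshold against Cr by a small margin. The log2 fold change of Cr × Cg over Cr was 5.25 ± 1.66 for Carubv10002555m.g (adjusted p 0.0677), 5.55 ± 1.73 for Carubv10003757m.g (adjusted p 0.0659) and 5.92 ± 1.76 for Carubv10008056m.g (adjusted p 0.0625). The 1 call of 4 stands beside 12.4% of all tested genes called higher in Cr × Cg than in Cr. DESeq2 called all 4, with adjusted p values of 6.01e-07 for Carubv10001920m.g, 0.0416 for Carubv10002555m.g, 0.031 for Carubv10003757m.g and 0.00165 for Carubv10008056m.g. Over all 15 fits of this comparison the adjusted p ranged from 6.01e-07 to 0.105 for Carubv10001920m.g, from 0.00447 to 0.245 for Carubv10002555m.g, from 0.00354 to 0.251 for Carubv10003757m.g and from 0.00165 to 0.221 for Carubv10008056m.g.

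Against the father species, the differences were smaller and none was called by edgeR. The log2 fold change of Cr × Cg over Cg was 1.60 ± 1.13 for Carubv10001920m.g (adjusted p 0.405), 1.80 ± 1.38 for Carubv10002555m.g (adjusted p 0.444), 3.79 ± 1.56 for Carubv10003757m.g (adjusted p 0.165) and 2.90 ± 1.51 for Carubv10008056m.g (adjusted p 0.266). The 0 calls of 4 stand beside 7.28% of all tested genes called higher, with 1 homologue at an unadjusted p under 0.05 and 0 called by DESeq2. No homologue was therefore called against both parents in Cr × Cg, where 3.72% of all tested genes were called higher than both.

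These tests share 1 estimate of the spread of each gene over the 4 crosses, and the distance between the Cg × Cr libraries enters it. The comparisons that do not involve Cg × Cr were therefore repeated without both Cg × Cr libraries, a fit chosen after the data had been seen. The SE of Carubv10008056m.g against Cr was then 0.70 in place of 1.76. All 4 homologues were called higher in Cr × Cg than in Cr (12.3% of all tested genes), with log2 fold changes between 5.26 and 11.13 and adjusted p values between 0.00137 and 0.00447.

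Against Cg, 2 of 4 were called higher in Cr × Cg without those libraries (7.68% of all tested genes). Carubv10003757m.g had a log2 fold change of 3.80 ± 0.68 (adjusted p 0.0141) and Carubv10008056m.g of 2.90 ± 0.59 (adjusted p 0.0231), both from edgeR. These were also the 2 homologues called against both parents in that fit. Carubv10001920m.g (adjusted p 0.134) and Carubv10002555m.g (adjusted p 0.109) did not pass. The fold changes were nearly those of the fit to all libraries, and the SEs were smaller. Over all 15 fits the adjusted p against Cg ranged from 0.134 to 0.910 for Carubv10001920m.g, from 0.0431 to 0.770 for Carubv10002555m.g, from 0.0141 to 0.467 for Carubv10003757m.g and from 0.0146 to 0.578 for Carubv10008056m.g.

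**Figure D2:**
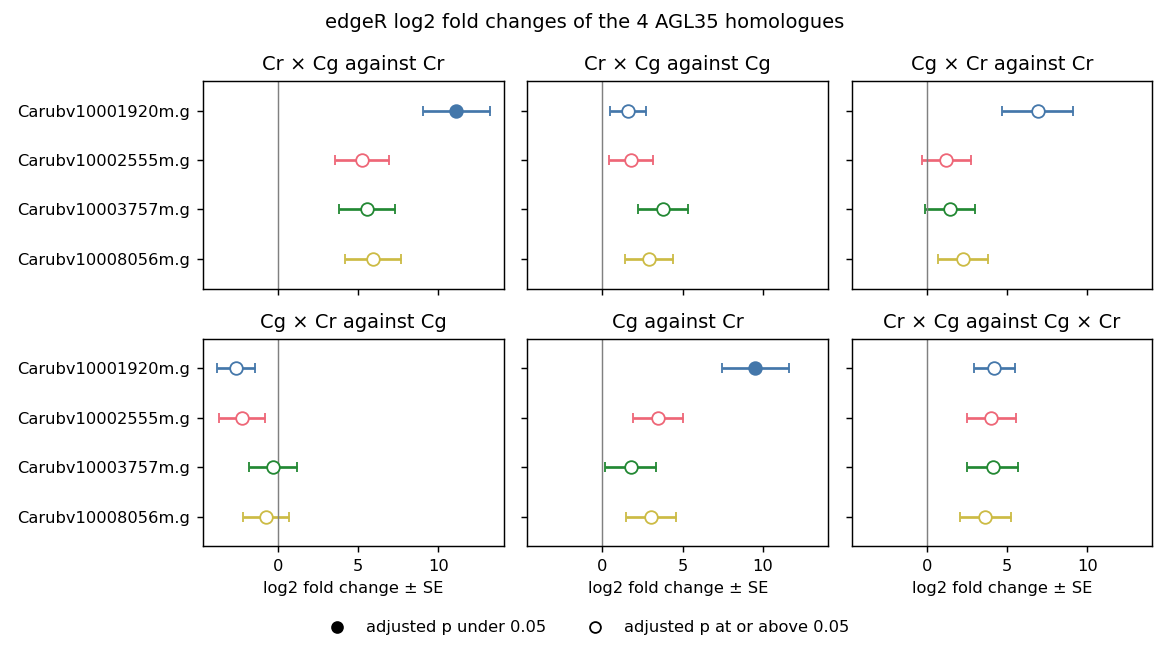
Log2 fold change of each AGL35 homologue in the 6 comparisons of crosses from the edgeR fit to all 8 libraries, with bars of 1 SE, filled symbols for an adjusted p under 0.05 and open symbols for the rest. Carubv10001920m.g alone is filled, in Cr × Cg against Cr (11.13) and in Cg against Cr (9.53), and all values of Cr × Cg against another cross are above 0.

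Between the parental species, both Cg libraries exceeded both Cr libraries for every homologue, and the test called 1 of them. Carubv10001920m.g had 899 counts in Cg against 1 in Cr, a ratio of CPM of 925 with a 95% counting interval of 166 to 36568 (log2 fold change 9.53 ± 2.08 SE, adjusted p 0.0332). The call was lost without either Cg library (adjusted p 0.0977 and 0.0994), without either Cr library (0.168 and 0.177), without the first Cr × Cg library (0.0514) and without a filter on low counts (0.0736). The log2 fold change of Cg over Cr was 3.45 ± 1.56 for Carubv10002555m.g (adjusted p 0.200), 1.76 ± 1.57 for Carubv10003757m.g (adjusted p 0.507) and 3.03 ± 1.58 for Carubv10008056m.g (adjusted p 0.266).

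This 1 call of 4 stands beside 7.66% of all tested genes called higher in Cg. Without both Cg × Cr libraries the share over all tested genes was 7.68% and the test called 3 of 4, Carubv10001920m.g (adjusted p 0.00441), Carubv10002555m.g (adjusted p 0.0259) and Carubv10008056m.g (adjusted p 0.0264). Carubv10003757m.g was the exception, at 1.76 ± 0.69 (adjusted p 0.147). Over all 15 fits the adjusted p of Cg against Cr ranged from 4.42e-05 to 0.177 for Carubv10001920m.g, from 0.0257 to 0.501 for Carubv10002555m.g, from 0.110 to 0.775 for Carubv10003757m.g and from 0.0142 to 0.562 for Carubv10008056m.g.

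In the reciprocal direction, Cg × Cr seeds gave no call by edgeR against either parent. The log2 fold change of Cg × Cr over Cr was 6.91 ± 2.22 for Carubv10001920m.g (adjusted p 0.136), 1.22 ± 1.54 for Carubv10002555m.g (adjusted p 0.701), 1.45 ± 1.57 for Carubv10003757m.g (adjusted p 0.649) and 2.27 ± 1.55 for Carubv10008056m.g (adjusted p 0.464). The 0 calls of 4 stand beside 4.56% of all tested genes called higher, with 1 homologue at an unadjusted p under 0.05. DESeq2 called 1, Carubv10001920m.g (adjusted p 0.00723, with 0.00723 to 0.470 over the 13 fits that gave a p). It had 136 counts in Cg × Cr against 1 in Cr. For the other 3 the sign rests on the second Cg × Cr library, and without it the values were -7.50 for Carubv10002555m.g, -7.78 for Carubv10003757m.g and -2.87 for Carubv10008056m.g.

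Against the mother species Cg, the log2 fold change of Cg × Cr was -2.62 ± 1.21 for Carubv10001920m.g (adjusted p 0.286), -2.23 ± 1.45 for Carubv10002555m.g (adjusted p 0.441), -0.31 ± 1.47 for Carubv10003757m.g (adjusted p 0.933) and -0.76 ± 1.43 for Carubv10008056m.g (adjusted p 0.813). The 0 calls of 4 stand beside 1.32% of all tested genes called lower, with 0 at an unadjusted p under 0.05 and 0 called by DESeq2. For Carubv10003757m.g and Carubv10008056m.g the sign rests on the first Cg × Cr library, and without it the values were 0.69 and 0.21. For Carubv10003757m.g the sign also turned without the first Cg library, to 0.22.

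The reciprocal hybrids have the same 2 parental species and differ in which of them was the mother. Whole seeds also include tissue of the mother plant, such as the seed coat, and its part in this comparison was not separated. Cr × Cg was above Cg × Cr by a log2 fold change of 4.22 ± 1.28 for Carubv10001920m.g (adjusted p 0.0568), 4.02 ± 1.54 for Carubv10002555m.g (adjusted p 0.106), 4.10 ± 1.59 for Carubv10003757m.g (adjusted p 0.111) and 3.66 ± 1.56 for Carubv10008056m.g (adjusted p 0.146). The fold changes were close to each other, although the homologues differed widely in their parental ratios. That closeness rests on the second Cg × Cr library. Without it the values were 7.87, 12.76, 13.34 and 8.80 in the same order, with no Cg × Cr count left for Carubv10002555m.g and Carubv10003757m.g. The 0 calls of 4 by edgeR stand beside 11.6% of all tested genes called higher in Cr × Cg, with 3 homologues at an unadjusted p under 0.05 and 1 called by DESeq2, Carubv10001920m.g (adjusted p 0.0257).

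The number of calls in this comparison changed with the Cg × Cr library left out. Without the second, all 4 homologues were called higher in Cr × Cg, with adjusted p values between 0.00695 and 0.0104, beside 6.71% of all tested genes, and the remaining Cg × Cr library was then assumed to vary as the other crosses did. Without the first Cg × Cr library instead, the log2 fold changes were between 2.70 and 3.29, with adjusted p values between 0.0558 and 0.0709. Over all 14 fits the adjusted p ranged from 0.0104 to 0.215 for Carubv10001920m.g, from 0.0079 to 0.311 for Carubv10002555m.g, from 0.00714 to 0.366 for Carubv10003757m.g and from 0.00695 to 0.396 for Carubv10008056m.g.

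The distance between the Cg × Cr libraries was therefore described by itself. The second library was 24.8 times the first in CPM for Carubv10001920m.g, at least 37.0 times for Carubv10002555m.g, at least 52.7 times for Carubv10003757m.g and 70.4 times for Carubv10008056m.g, with 3 counts in the first library as the floor where it had 0. On log2 (CPM + 1), between 0.0377 and 0.448% of all tested genes lay at least as far apart in these 2 libraries as the individual homologues. Among the 44 other tested type I homologues the difference ranged from -0.411 to 1.91 with a median of 0.0862, and 0 of 44 reached the smallest difference of an AGL35 homologue, 2.25. The nearest was AGL40, at 1.91, with 6 and 91 counts. On this scale a gene at a low level in both libraries cannot reach a large difference, which limited many of the 44. Some genes chosen below for a like profile also lay far apart, such as Carubv10006650m.g (10 and 565 counts) and Carubv10018613m.g (3 and 142 counts). Others did not, such as Carubv10012711m.g (697 and 900 counts). The distance was thus not found in AGL35 homologues alone.

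**Figure D3:**
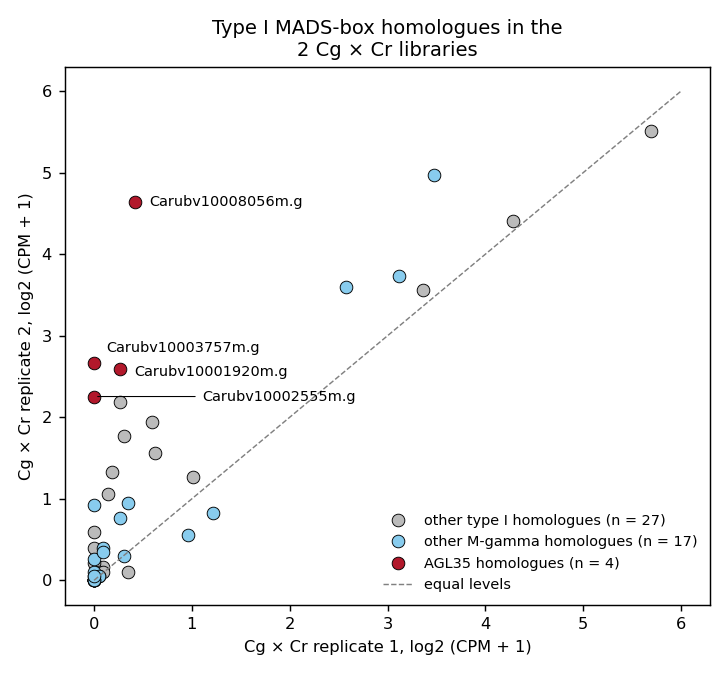
Level of each tested type I MADS-box homologue, as log2 (CPM + 1), in Cg × Cr replicate 1 (horizontal axis) and Cg × Cr replicate 2 (vertical axis), with the AGL35 homologues named and a dashed line at equal levels. The 4 AGL35 homologues lie 2.25 to 4.22 log2 units above the line, further than any of the 17 other Mγ homologues and the 27 remaining type I homologues. On this scale genes at low levels in both libraries cannot lie far from the line.

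In the second Cg × Cr library the homologues stood at 11.2, 13.3, 12.6 and 16.8% of their mean CPM in Cr × Cg, in the order of their identifiers. In the first they stood at 0.450, 0, 0 and 0.238%. The 30 other type I homologues with at least 1 CPM in both Cr × Cg libraries had medians of 5.74% in the second and 0.623% in the first. The 19 genes with at most 1 count in each parental library and at least 1 CPM in both Cr × Cg libraries had medians of 2.86% and 0%, and 8 of these 19 had no count in the second library. Whether RNA or seeds of another cross were part of the second library was not tested.

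The libraries also differed in transcripts of the maturing embryo. The homologue of CRUCIFERINA (CRA1), which encodes a seed storage protein, had 141 and 0.161 CPM in Cr × Cg, 314 and 80.2 CPM in Cg × Cr, 0.667 and 0.0735 CPM in Cg, and 2334 and 24.6 CPM in Cr. That of CRUCIFERIN C (CRC), another storage protein, had 308 and 0.121 CPM in Cr × Cg, 1377 and 244 CPM in Cg × Cr, 11.8 and 4.15 CPM in Cg, and 3848 and 42.5 CPM in Cr. Both were higher in replicate 1 of every cross.

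The AGL35 homologues were lower in replicate 1 than in replicate 2 in 4 of 4 cases in Cr × Cg and in Cg × Cr, in 3 of 4 in Cr and in 0 of 4 in Cg. Of the 44 other tested type I homologues, 25 were higher in replicate 2 among Cr × Cg seeds and 30 among Cg × Cr seeds. For the parental seeds these counts were 21 (Cr) and 8 (Cg). The median difference of all tested genes, replicate 2 minus replicate 1 on log2 (CPM + 1), lay between -0.0414 and 0.0238 over the crosses. Whether seed stage or tissue make-up had a part in the levels of AGL35 homologues was not tested.

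Of the markers listed for seed tissues, 5 of 7 embryo, 4 of 6 endosperm and 2 of 6 seed coat genes were paired with a Capsella gene. All of those had counts in every library. Pairs were taken only from the study's lists of type I homologues and of genes deregulated in hybrid or Arabidopsis interploidy seeds. A marker in neither list could not be paired. The paired markers are therefore not a neutral choice of tissue genes, and their differences between crosses do not measure tissue make-up. The embryo genes without the 2 storage proteins are LEC1, LEC2 and FUS3, regulators of embryo development. Their summed level was 66.3 and 68.6 CPM in Cr × Cg, 262.5 and 247 CPM in Cg × Cr, 352 and 204 CPM in Cg, and 281 and 360.3 CPM in Cr. Both Cr × Cg libraries were thus below all others, and the Cg × Cr libraries were close to each other. With the storage proteins the sums were 515 and 68.9 CPM in Cr × Cg, 1953 and 572 CPM in Cg × Cr, 364 and 208 CPM in Cg, and 6463 and 427 CPM in Cr.

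Among these regulators, FUS3 was higher in replicate 1 in 3 of 4 crosses, with 26.1 and 6.32 CPM in Cr × Cg, 178 and 109.0 CPM in Cg × Cr, 75.3 and 26.5 CPM in Cg, and 82.4 and 117 CPM in Cr. LEC1, with 10.4 and 24.4 CPM in Cr × Cg, 60.6 and 98.7 CPM in Cg × Cr, 173.8 and 77.5 CPM in Cg, and 146 and 152 CPM in Cr, was higher in replicate 1 in Cg only. LEC2 had 29.8 and 37.8 CPM in Cr × Cg, 24.0 and 39.5 CPM in Cg × Cr, 102.6 and 99.8 CPM in Cg, and 52.7 and 91.6 CPM in Cr. The direction of the storage proteins was therefore shared in part by FUS3 and not by LEC1 and LEC2 outside Cg.

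Summed over the endosperm genes, the level was 70.6 and 107 CPM in Cr × Cg, 18.4 and 48.5 CPM in Cg × Cr, 61.8 and 53.6 CPM in Cg, and 58.1 and 80.6 CPM in Cr. The Cg × Cr libraries differed in the same direction as for the AGL35 homologues but less. The members of this list did not share 1 order of crosses. MINI3 had 40.9 and 45.7 CPM in Cr × Cg, 0.271 and 1.05 CPM in Cg × Cr, 6.00 and 6.65 CPM in Cg, and 0.912 and 2.13 CPM in Cr. FWA had 22.2 and 51.4 CPM in Cr × Cg, 1.46 and 2.33 CPM in Cg × Cr, 9.60 and 6.03 CPM in Cg, and 3.44 and 3.90 CPM in Cr. Both were highest in Cr × Cg and next highest in Cg, as were the AGL35 homologues.

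The other endosperm genes ran differently. ZHOUPI (ZOU) had 6.21 and 6.48 CPM in Cr × Cg, 15.5 and 41.4 CPM in Cg × Cr, 38.4 and 33.8 CPM in Cg, and 47.0 and 63.6 CPM in Cr, and was lowest in Cr × Cg. FIS2 was lower in both hybrids than in both parents. The 2 seed coat genes also differed. TT12, a flavonoid transporter, had 146 and 191 CPM in Cr × Cg, 71.6 and 83.3 CPM in Cg × Cr, 77.0 and 126 CPM in Cg, and 26.4 and 23.5 CPM in Cr. MUM4, an enzyme of mucilage synthesis, had 98.7 and 158 CPM in Cr × Cg, 215 and 49.4 CPM in Cg × Cr, 160.3 and 102.4 CPM in Cg, and 433 and 499.8 CPM in Cr. TT12 was highest in Cr × Cg and MUM4 in Cr.

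The make-up of the AGL35 counts differed between crosses. Carubv10001920m.g took 13.8 and 18.9% of them in Cr × Cg, 37.5 and 13.3% in Cg × Cr, 35.6 and 29.5% in Cg, and 1.37 and 0% in Cr. Its share in Cr × Cg lay between those of the parents, with exact Clopper-Pearson 95% intervals of 12.8 to 14.8% and 18.1 to 19.7%, and the first Cg × Cr value rests on 6 of 16 counts (15.2 to 64.6%). Its share of 0 in the second Cr library has an upper limit of 2.25%. Such intervals cover counting error only.

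Carubv10003757m.g took 14.4 and 17.2% of the AGL35 counts in Cr × Cg, 0 and 14.1% in Cg × Cr, 7.70 and 5.51% in Cg, and 28.8 and 20.4% in Cr. Carubv10002555m.g took 12.8 and 10.3% in Cr × Cg, 0 and 9.90% in Cg × Cr, 17.6 and 18.6% in Cg, and 12.3 and 21.0% in Cr. Carubv10008056m.g took 59.1 and 53.6% in Cr × Cg, 62.5 and 62.8% in Cg × Cr, 39.1 and 46.4% in Cg, and 57.5 and 58.6% in Cr. Leaving aside the first Cg × Cr library, whose shares rest on 16 counts, the Cg libraries had the highest shares of Carubv10001920m.g and the lowest shares of Carubv10003757m.g and Carubv10008056m.g.

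The second Cg × Cr library, with 980 AGL35 counts, had shares of 13.3, 9.90, 14.1 and 62.8% in the order of the identifiers. The Cr × Cg libraries had 13.8, 12.8, 14.4 and 59.1% in the first and 18.9, 10.3, 17.2 and 53.6% in the second. With 2 libraries per cross no test of the shares was made.

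**Figure D4:**
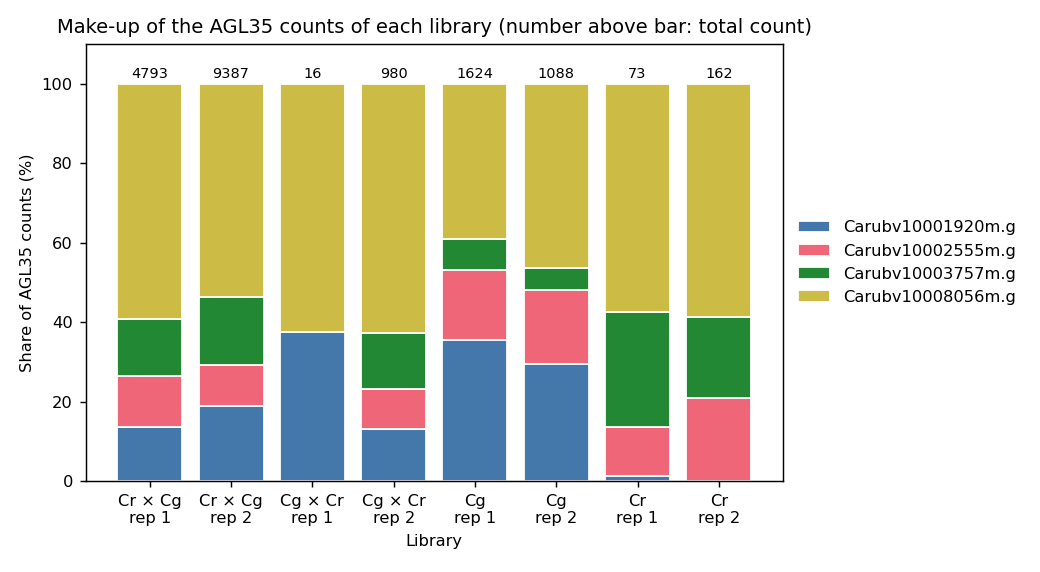
Share of the AGL35 counts of each library, in percent, that fell on each of the 4 homologues, with the total AGL35 count above each bar. Carubv10001920m.g takes 35.6 and 29.5% in Cg and at most 1.37% in Cr, and the first Cg × Cr bar rests on 16 counts.

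The hybrids were also set against the mean of the parental means. In Cr × Cg the first and second library stood at 2.48 and 9.17 times this value for Carubv10001920m.g, 3.85 and 8.39 times for Carubv10002555m.g, 9.65 and 31.3 times for Carubv10003757m.g and 7.37 and 18.1 times for Carubv10008056m.g. All Cr × Cg values were thus above the parental mean, by the widest margin in the copy with the smallest difference between the parents. In Cg × Cr the libraries stood at 0.0262 and 0.650 times for Carubv10001920m.g, 0 and 0.811 times for Carubv10002555m.g, 0 and 2.58 times for Carubv10003757m.g and 0.0303 and 2.14 times for Carubv10008056m.g. In the second Cg × Cr library, 2 of the homologues were below the parental mean and 2 above it.

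The 17 other Mγ homologues that passed the filter, of 22 assigned to this class by their Arabidopsis identifiers, were examined for comparison. The genes listed as AGL87 were not among them and were counted with the remaining type I list. The counts of both lists depend on this assignment, which was not checked against sequences. In Cr × Cg against Cr, 11 of 17 were called higher and 0 lower, with a median log2 fold change of 3.77, against a median of 5.74 for the AGL35 homologues and of 0.03 for all tested genes. In Cr × Cg against Cg, 8 of 17 were called higher and 0 lower, with a median of 2.88, against 2.35 for the AGL35 homologues and 0.01 for all tested genes. Of all tested genes, 12.4% were called higher against Cr and 7.28% against Cg. Against Cg, the SEs of the AGL35 homologues were between 1.13 and 1.56, and those of the 8 Mγ homologues called were between 0.66 and 1.05. Whether the AGL35 homologues differ from the other Mγ genes in their response was not tested.

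In the Mγ list, those called higher in Cr × Cg than in both parents were AGL36, AGL37, AGL48, AGL49, AGL51, AGL52, AGL90 and AGL96. Of all tested genes, 3.72% were called higher than both. The names follow the study's list, which pairs those named AGL48, AGL49, AGL51 and AGL52 with the same Arabidopsis gene, AT2G40210. It also pairs AGL36 and AGL37 with AT5G26650. The class was assigned by this identifier, so a name in this list does not give the class of the gene. AGL36, which is maternally expressed in Arabidopsis endosperm, had log2 fold changes of 8.10 ± 1.13 against Cr (adjusted p 0.00261) and 3.96 ± 0.82 against Cg (adjusted p 0.0173) in edgeR. The gene listed as AGL37 had 6.30 ± 1.00 against Cr (adjusted p 0.0042) and 3.70 ± 0.80 against Cg (adjusted p 0.0198). AGL90 had 7.81 ± 1.15 against Cr (adjusted p 0.00313) and 3.20 ± 0.81 against Cg (adjusted p 0.0339). These fold changes against Cg were close to the 3.79 of Carubv10003757m.g, whose SE of 1.56 was larger. They were above those of Carubv10001920m.g (1.60), Carubv10002555m.g (1.80) and Carubv10008056m.g (2.90).

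Of the 27 tested homologues of the remaining type I list, out of 60, 16 were called higher and 0 lower in Cr × Cg against Cr, and 14 higher and 1 lower against Cg. The 1 called lower by edgeR was Carubv10022252m.g, listed as AGL87 (log2 fold change -2.07 ± 0.52, adjusted p 0.0346). The shares of all tested genes called higher were 12.4% and 7.28%. Between the reciprocal hybrids, 12 of 17 Mγ and 18 of 27 remaining type I homologues were called higher in Cr × Cg and 0 lower, beside 11.6% of all tested genes called higher. In Cg × Cr, edgeR called 0 of these 17 and 0 of these 27 against either parent. Over all tested genes it called 4.56% higher against Cr and 1.32% lower against Cg. Against Cg, 6 of the Mγ and 5 of the remaining homologues had an unadjusted p under 0.05, and DESeq2 called 3 and 1, with 0 of them higher. Against Cr, these counts were 6 and 4, and DESeq2 called 2 and 1, of which 1 and 0 were higher. Over all genes, DESeq2 called 1943 against Cg and 2525 against Cr.

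Of the FIS Polycomb complex, the homologues of MEA and FIS2 were paired with Capsella genes. FIE and MSI1, also of this complex, were not. The pairs came from the same lists as the markers, which hold deregulated genes, so these genes need not stand for the complex. The counts of MEA, the histone methyltransferase of the complex, were 274 and 198 in Cr × Cg, 0 and 8 in Cg × Cr, 24 and 27 in Cg, and 9 and 10 in Cr. It was called higher in Cr × Cg than in Cr (log2 fold change 4.65 ± 0.91, adjusted p 0.00965), Cg (3.20 ± 0.83, adjusted p 0.0382) and Cg × Cr (5.78 ± 0.99, adjusted p 0.00575) in edgeR. Its mean level was highest in Cr × Cg and next highest in Cg, as for the AGL35 homologues.

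The counts of FIS2, the zinc finger subunit, were 45 and 76 in Cr × Cg, 36 and 97 in Cg × Cr, 235 and 194 in Cg, and 232 and 271 in Cr. Both hybrids lay below both parents, with log2 fold changes of -1.95 ± 0.61 in Cr × Cg against Cr (adjusted p 0.0534) and -1.63 ± 0.60 in Cg × Cr against Cg (adjusted p 0.185), neither of which passed. Between the reciprocal hybrids, where the AGL35 homologues had log2 fold changes of 3.66 to 4.22, FIS2 had -0.10 ± 0.60 (adjusted p 0.919).

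Genes with a profile like that of each homologue were sought by Pearson's r of log2 (CPM + 1) over the 8 libraries, which is a description over libraries that share their crosses. Among themselves the homologues had r between 0.874, for Carubv10001920m.g with Carubv10003757m.g, and 0.980, for Carubv10002555m.g with Carubv10008056m.g. Carubv10002555m.g was the 3rd most alike of all tested genes to Carubv10008056m.g. At the other end, Carubv10003757m.g ranked 581 among tested genes for Carubv10001920m.g, which in turn ranked 829 for Carubv10003757m.g. Ranks by r depended on the pseudocount added to CPM, as given at the end of the report.

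The gene most like Carubv10001920m.g was Carubv10011773m.g, paired with AT1G18830, with r of 0.990. Its counts were 120 and 301 in Cr × Cg, 2 and 46 in Cg × Cr, 122 and 119 in Cg, and 0 in both Cr libraries. Next came Carubv10005594m.g (AT4G13690, r of 0.985) and Carubv10006650m.g (AT4G32105, r of 0.983). Carubv10006650m.g had 134 and 224 CPM in Cr × Cg, 0.339 and 22.0 CPM in Cg × Cr, 59.3 and 50.4 CPM in Cg, and 0.706 and 0.885 CPM in Cr. The most alike type I homologues were AGL40 (0.931) and AGL28 (0.927), both of the Mα class. They ranked 142 and 168 among all tested genes, so many other genes were more alike.

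For Carubv10002555m.g the nearest were Carubv10025669m.g (r of 0.993), Carubv10007111m.g (AT4G18870, 0.989) and Carubv10003514m.g (AT5G10660, 0.987). Among type I homologues they were AGL28 (0.970, rank 26 among all tested genes) and AGL40 (0.968, rank 33). Carubv10025669m.g had 42.8 and 87.0 CPM in Cr × Cg, 0.204 and 3.96 CPM in Cg × Cr, 17.0 and 12.9 CPM in Cg, and 0.588 and 1.21 CPM in Cr. Carubv10003514m.g passed the edgeR test between the reciprocal hybrids, at 3.35 ± 0.47 (adjusted p 0.00297). Its Cg × Cr libraries were closer, at 2.58 and 6.57 CPM.

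For Carubv10003757m.g the nearest were Carubv10019545m.g (r of 0.990), Carubv10018613m.g (0.989) and Carubv10021819m.g (AT1G50980, 0.989). Among type I homologues they were AGL61 (0.960), a central cell factor also named DIANA, and AGL90 (0.955). These ranked 62 and 82 among all tested genes. Carubv10018613m.g had 51.9 and 93.7 CPM in Cr × Cg, 0.102 and 5.52 CPM in Cg × Cr, 5.50 and 2.90 CPM in Cg, and 0.530 and 1.57 CPM in Cr. The counts of AGL61 were 172 and 354 in Cr × Cg, 0 and 13 in Cg × Cr, 22 and 5 in Cg, and 1 in each Cr library. AGL61 was called higher in Cr × Cg than in Cg by edgeR (4.42 ± 1.20, adjusted p 0.0458).

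For Carubv10008056m.g the nearest were Carubv10011660m.g (r of 0.993), Carubv10012711m.g (0.981) and the homologue Carubv10002555m.g (0.980). Among type I homologues they were AGL40 (0.960, rank 16 among all tested genes) and AGL91 (0.939, rank 57). Carubv10012711m.g varied only between 23.1 and 43.8 CPM over the 8 libraries, so likeness in r does not mean likeness in the size of the differences. AGL40 had 45.8 and 65.1 CPM in Cr × Cg, 0.204 and 3.54 CPM in Cg × Cr, 6.80 and 7.43 CPM in Cg, and 0.706 and 0.804 CPM in Cr. AGL40 therefore showed the same order of crosses, with Cr × Cg replicates closer to each other.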

How the data were processed

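With Stampy the authors placed the reads of every cross on the C. rubella reference, removed reads with several mapping positions and counted the rest per gene with HTSeq. They deposited these raw counts for 26521 genes without normalization. The kit does not mark strand, so antisense reads are not separated. Libraries were assigned to crosses by their titles. Tests were run with edgeR 4.0.16 under R 4.3.3: filterByExpr with a count minimum of 10, TMM scaling and a robust quasi-likelihood fit of all 8 libraries without a replicate block, with Benjamini-Hochberg adjustment over 21214 genes and a threshold of 0.05. SE is the absolute log2 fold change divided by the square root of F. CPM are counts scaled to a library total of 1000000. DESeq2 1.42.0 was an alternative, and the scripts were tested on simulated data. Tables and figures were made in Python 3.11.15 (matplotlib 3.10.9, NumPy 2.4.6, pandas 2.3.3).

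The 4 homologues, the gene lists and the tests were chosen with earlier results of these data known. Besides the homologues, the genes named are the 3 tested genes and the 2 type I homologues with the highest r to each, the other Mγ genes called against both parents, the FIS genes found, and markers. Same-numbered replicates are separate seed samples, and what else they share is not given in the sources used here. The p-values measure only the spread between these libraries.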

Additional observations from a re-analysis of the deposited data

Results flagged for a closer look

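Among the 4 AGL35 homologues, Carubv10002555m.g was the one whose hybrids lay on opposite sides of a parent without overlap. The share of all tested genes with this pattern was not computed. It was not particular to this copy, since AGL28 and AGL40 also had it. AGL28 had 44.8 and 82.5 CPM in Cr × Cg, 0.238 and 2.41 CPM in Cg × Cr, and 10.8 and 10.2 CPM in Cg. For Carubv10002555m.g, both Cr × Cg libraries (17.9 and 39.0 CPM) were above both Cg libraries (9.53 and 7.43 CPM), and both Cg × Cr libraries (0 and 3.77 CPM) were below them. Its log2 fold change of Cr × Cg over Cg × Cr was 4.02, and edgeR's quasi-likelihood test of this difference did not pass (adjusted p 0.106).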

How the results depend on the processing

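With edgeR on all libraries, 1, 0, 0, 0, 1 and 0 of the 4 homologues were called in Cr × Cg against Cr, Cr × Cg against Cg, Cg × Cr against Cr, Cg × Cr against Cg, Cg against Cr and Cr × Cg against Cg × Cr. DESeq2 called 4 in the first, 1 in the third, 1 in the fifth and 1 in the last. A fit of only the crosses compared called 4 in the first, 3 in the second and in the count against both parents, and 3 in Cg against Cr. No filter on low counts called 0 in Cg against Cr. The fit without both Cg × Cr libraries, chosen after the data had been seen, called 4, 2 and 3 in the comparisons of Cr × Cg with Cr, of Cr × Cg with Cg and of Cg with Cr, and 2 against both parents. Leaving out each library in turn gave 0 to 4, 0 to 2, 0 to 1, 0 to 1, 0 to 3 and 0 to 4 calls in the order above and 0 to 2 against both parents in Cr × Cg.

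With the replicate number as a replicate block, 4 homologues were called in Cr × Cg against Cr and 3 between the reciprocal hybrids. Deviations of same-numbered libraries correlated at r between -0.214 and 0.361 over the 6 pairs of crosses, so the numbers were not taken to pair the samples.

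The sign turned in 6 cases, all with 1 library left out and none called there. Over the fits without 1 library, the log2 fold change of Cg × Cr over Cr ranged from -7.50 to 2.72 for Carubv10002555m.g, from -7.78 to 2.45 for Carubv10003757m.g and from -2.87 to 3.23 for Carubv10008056m.g, each lowest without Cg × Cr replicate 2. That of Cg × Cr over Cg ranged from -9.54 to 0.69 for Carubv10003757m.g and from -5.90 to 0.21 for Carubv10008056m.g, each highest without Cg × Cr replicate 1, and was 0.22 for Carubv10003757m.g without Cg replicate 1. Of the other values of single homologues, 287 kept direction and side of the threshold, 46 passed newly and 8 were lost. The cause was not tested.

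Over all tested genes, DESeq2 called 2525 against 1373 by edgeR in Cg × Cr against Cr, and 1943 against 541 in Cg × Cr against Cg. Leaving out 1 library gave as few as 2055 of 4822 calls in Cr × Cg against Cr, 1100 of 3155 against Cg, 241 of 1373 in Cg × Cr against Cr, 162 of 541 against Cg, 966 of 2766 in Cg against Cr and 2276 of 5213 between the hybrids. With a pseudocount of 0.1, r among the homologues was between 0.804 and 0.983. Of the genes named as nearest to a homologue, Carubv10011773m.g and Carubv10011660m.g then kept rank 1. Carubv10005594m.g fell from rank 2 to 20, Carubv10003514m.g from 3 to 81, Carubv10019545m.g from 1 to 42 and Carubv10021819m.g from 3 to 28. The rest of the 3 nearest genes of each homologue ranked between 3 and 16. The type I homologues named as most alike ranked lower, from 22 (AGL40 for Carubv10008056m.g) to 585 (AGL28 for Carubv10001920m.g). Shares per kilobase were not run, since no gene lengths were used.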
